A study of Mus musculus with 10 samples.

Results

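The lungs of the 3 Saline mice, out of 10 mice whose lung DNA was sequenced, were described here as a map of CpG methylation in the lung of control mice. They were chosen by their label alone, and no measured value entered the choice. The study set saline control mice beside mice with OVA-induced asthma and OVA mice given a seed extract, labelled Herb, and neither of the other groups was analysed. The Saline mice were female BALB/c mice that, per the study's methods, were bought at 8 weeks of age and received saline only. Their age when the lungs were taken is not stated, and each library came from the lung tissue of 1 mouse. Libraries were enriched for CpG-dense and regulatory DNA with the SureSelect Methyl-Seq capture before bisulfite conversion, so the windows reported are those that the capture reached. Each window spanned 1000 bp, and consecutive windows started 500 bp apart.

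In mammalian DNA most cytosines followed by guanine (CpG sites) carry a methyl group, and methylated cytosine tends to mutate to thymine over evolutionary time, so most of the genome is poor in CpG. CpG islands, which lie at the start sites of most housekeeping and many developmental genes, are protected from methylation and keep their CpGs. Well-known exceptions are islands on the inactive X chromosome of females, imprinted islands that are methylated on the copy inherited from a single parent, and germ line genes whose islands are methylated in body tissues. Lung tissue mixes epithelial, endothelial, mesenchymal and immune cells, and in such bulk DNA a share of cells that are fully methylated at a site cannot be told apart from partial methylation in every cell.

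The promoter sequences that carry these patterns are shown first, as the 250 bases before the start site of 9 genes, written 5′ to 3′ along the gene, with CpG sites in capitals. They are RefSeq sequences of GRCm38.p6, the build that matches the windows. RefSeq gave a sequence at the start site used for 16482 of 21000 protein-coding genes. Eef1a1 (a translation elongation factor), Abca3 (the lipid transporter of surfactant-making cells) and Kdr (a VEGF receptor of endothelium) stand for CpG-dense promoters with hardly any methylation. Kdm6a and Hprt are both X-linked and CpG-dense but differ in methylation. Peg3 is imprinted, Dazl and Sycp1 are germ line genes, and Alb, which codes for serum albumin of the liver, has a promoter with few CpG sites.
Eef1a1 (chr9:78481725-78481974, minus strand): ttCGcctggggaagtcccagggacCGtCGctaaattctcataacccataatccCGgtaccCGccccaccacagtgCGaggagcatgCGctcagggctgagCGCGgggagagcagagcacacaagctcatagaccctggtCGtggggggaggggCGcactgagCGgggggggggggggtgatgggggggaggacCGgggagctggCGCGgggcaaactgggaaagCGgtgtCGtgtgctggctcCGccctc
Abca3 (chr17:24351773-24352022, plus strand): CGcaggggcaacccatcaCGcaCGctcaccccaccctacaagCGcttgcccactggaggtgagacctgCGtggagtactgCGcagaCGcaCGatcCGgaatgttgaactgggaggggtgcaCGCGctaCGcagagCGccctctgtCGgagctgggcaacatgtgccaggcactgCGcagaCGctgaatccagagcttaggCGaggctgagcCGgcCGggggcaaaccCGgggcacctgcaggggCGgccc
Kdr (chr5:75978456-75978705, minus strand): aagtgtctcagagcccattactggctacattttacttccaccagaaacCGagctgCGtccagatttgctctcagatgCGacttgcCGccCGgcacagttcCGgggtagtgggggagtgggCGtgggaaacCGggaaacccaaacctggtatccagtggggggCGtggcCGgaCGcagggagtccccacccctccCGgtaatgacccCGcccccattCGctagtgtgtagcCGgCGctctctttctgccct
Kdm6a (chrX:18162325-18162574, plus strand): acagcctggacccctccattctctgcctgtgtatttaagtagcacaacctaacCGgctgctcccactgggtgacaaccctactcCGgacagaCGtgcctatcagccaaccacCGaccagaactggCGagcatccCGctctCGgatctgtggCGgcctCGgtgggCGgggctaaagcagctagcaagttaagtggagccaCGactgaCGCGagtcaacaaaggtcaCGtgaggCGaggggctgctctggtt
Hprt (chrX:52987828-52988077, plus strand): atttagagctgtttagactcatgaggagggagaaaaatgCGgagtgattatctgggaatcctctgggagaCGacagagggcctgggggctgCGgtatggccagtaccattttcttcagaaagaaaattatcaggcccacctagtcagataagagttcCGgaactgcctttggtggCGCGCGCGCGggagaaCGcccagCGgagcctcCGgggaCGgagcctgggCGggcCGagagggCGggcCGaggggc
Peg3 (chr7:6730420-6730669, minus strand): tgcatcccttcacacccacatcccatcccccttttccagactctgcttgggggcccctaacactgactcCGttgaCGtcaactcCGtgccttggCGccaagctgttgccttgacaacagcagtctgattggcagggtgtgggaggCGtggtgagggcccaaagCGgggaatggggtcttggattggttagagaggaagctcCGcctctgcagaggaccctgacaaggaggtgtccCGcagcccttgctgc
Dazl (chr17:50293621-50293870, minus strand): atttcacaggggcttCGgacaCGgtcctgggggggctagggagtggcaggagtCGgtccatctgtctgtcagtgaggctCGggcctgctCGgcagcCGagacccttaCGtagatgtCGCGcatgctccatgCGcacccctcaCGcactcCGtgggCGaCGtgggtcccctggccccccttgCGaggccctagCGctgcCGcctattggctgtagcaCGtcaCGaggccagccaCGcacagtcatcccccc
Sycp1 (chr3:102936101-102936350, minus strand): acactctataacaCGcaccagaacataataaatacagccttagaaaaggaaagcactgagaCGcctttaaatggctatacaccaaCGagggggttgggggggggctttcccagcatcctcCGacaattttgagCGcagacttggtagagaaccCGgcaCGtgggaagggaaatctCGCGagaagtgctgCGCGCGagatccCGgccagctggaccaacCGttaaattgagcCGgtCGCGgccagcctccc
Alb (chr5:90460620-90460869, plus strand): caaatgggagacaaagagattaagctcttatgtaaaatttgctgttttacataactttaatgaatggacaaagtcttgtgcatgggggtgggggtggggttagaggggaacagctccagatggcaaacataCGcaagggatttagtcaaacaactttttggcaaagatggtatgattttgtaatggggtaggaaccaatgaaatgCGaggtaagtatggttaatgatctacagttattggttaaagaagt

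The upstream bases held 18 CpG sites in Eef1a1, 21 in Abca3, 16 in Kdr, 15 in Kdm6a, 17 in Hprt, 8 in Peg3, 20 in Dazl, 17 in Sycp1 and 2 in Alb. The windows at these start sites gave very different methylation levels. Eef1a1 was methylated at 0.712%, 0.688% and 1.03% of calls in the 3 mice, Abca3 at 0.740%, 0.675% and 0.939%, and Kdr at 1.66%, 0.817% and 1.15%. Kdm6a gave 1.12%, 1.52% and 0.982%, whereas Hprt gave 24.1%, 26.9% and 24.7%. Peg3 gave 44.9%, 48.5% and 44.9%, Dazl 90.1%, 91.7% and 88.4%, Sycp1 91.6%, 92.9% and 92.4%, and Alb 72.9%, 77.0% and 69.1%. Dazl had more upstream CpG sites than Eef1a1 and Sycp1 as many as Hprt, and CpG content alone did not sort the 9 promoters. The 9 were picked to show X-linked, imprinted and germ line exceptions, so this says nothing of promoters at large.

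The file held 446336 windows, of which 432561 had at least 20 calls in every Saline mouse, a call being 1 read at 1 CpG site. The 3 libraries held 306656737 to 369901350 calls summed over windows, in which most calls counted in 2 overlapping windows, and the median window had 386, 343 and 416 calls. At 20 calls a window at 50% has a Wilson 95% interval of 29.9% to 70.1%, and at 400 calls of 45.1% to 54.9%, which cover counting error only. The windows held 21.4% of the CpG sites and 10.8% of the bases of the reference chromosomes. Methylation is given below as the percent of calls that were methylated, as the mean ± SD over n = 3 mice.

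Over all nuclear windows, methylation averaged 52.1%, 51.4% and 51.8% in the 3 mice (51.8% ± 0.323). The distribution had a peak at low and a peak at high methylation, but most windows lay from 20% to 80%. Windows under 10% made up 15.6% and windows from 80% to 90% made up 14.6%, and every other bin of 10 points held a smaller share. Under 20% lay 21.9% ± 0.348 of windows and over 80% lay 23.1% ± 0.272, which left 54.97% in between. Nearly full methylation was rare, with 2.55% of windows at 95% or over, whereas 11.5% were under 5%. When each call, rather than each window, had the same weight, mean methylation was 36.5% and the low share was 43.6%. Promoter windows had a median of 1210 calls and intergenic windows 275. Mouse 2 was the lowest in the mean and in each of the 4 gene features below, and its library also had the fewest calls; the part of depth in this order was not tested.

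**Figure D1:**
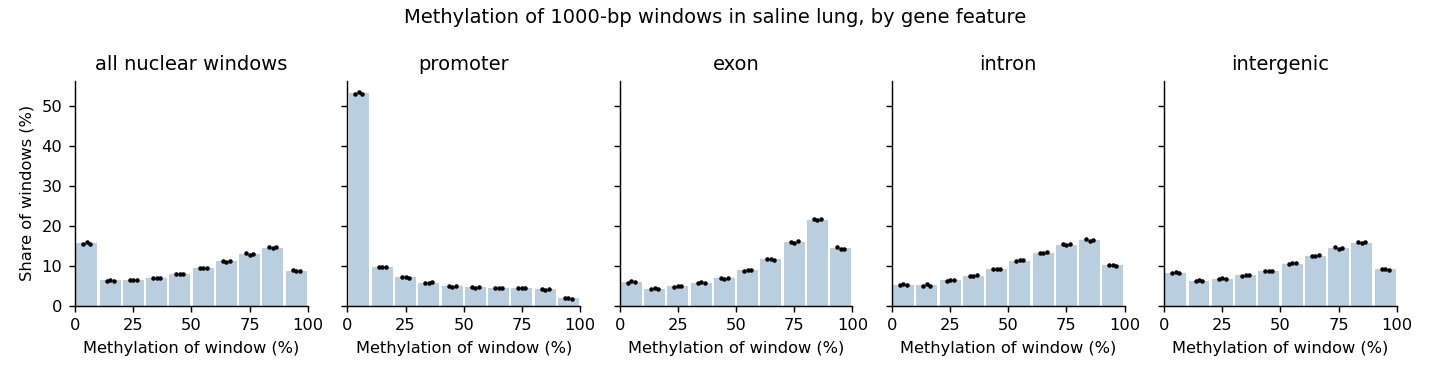
Share of windows (y axis, percent) by methylation level (x axis, percent, bins of 10 points) in all nuclear windows and in promoter, exon, intron and intergenic windows; bars are means and dots the 3 Saline mice. Promoter windows pile up under 10%, and exon windows peak from 80% to 90%.

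Gene features differed strongly. Promoter windows, which overlapped 1000 bp either side of a RefSeq start site, averaged 22.9%, 22.6% and 22.7% in the 3 mice (22.7% ± 0.164, 83778 windows), and 62.9% of them were under 20%. Their median window was at 7.92%, well under their mean. Exon windows outside promoters averaged 63.5% ± 0.343 (60579 windows), intron windows 59.2% ± 0.354 (134231 windows) and intergenic windows 56.3% ± 0.335 (167725 windows). Exon windows also held the most windows over 80%, at 35.8%, against 26.3% of intron, 24.7% of intergenic and 5.90% of promoter windows. Promoters were lower than intergenic DNA by 33.7, 33.4 and 33.6 percentage points in the 3 mice, a difference of -33.6 ± 0.171, and gene bodies were higher than promoters by 37.8 ± 0.185 points in 3 of 3 mice. Both differences were far larger than the spread between mice, although an exact two-sided permutation test with sign flips over n = 3 mice gave p = 0.25 for each, the smallest p that 3 mice allow.

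Within genes, at any distance from start sites, the level was lowest in 5′ UTRs and highest in later introns. Windows with their midpoint in a 5′ UTR averaged 12.4% ± 0.0758, in a first intron 43.9% ± 0.318, in a coding exon 50.8% ± 0.321, in a later intron 61.2% ± 0.327 and in a 3′ UTR 58.2% ± 0.397. Among windows more than 5 kb from any start site, coding exons were the highest, at 69.3% ± 0.337, followed by 3′ UTRs at 63.1% ± 0.441, later introns at 62.8% ± 0.334, first introns at 58.5% ± 0.392 and intergenic windows at 56.8% ± 0.344. The 3′ UTRs were above later introns by little in each mouse, with 63.5%, 62.6% and 63.2% against 63.2%, 62.5% and 62.9%. Past the end of transcripts, methylation fell from 64.6% ± 0.297 at 2 to 5 kb before the end to 54.6% ± 0.347 at 2 to 5 kb after it, again over windows more than 5 kb from a start site. Over a different set, all windows with an intergenic midpoint on either side of transcripts and at any distance from start sites, the mean was 44.1% within 10 kb of a transcript, 56.4% at 10 to 50 kb, 59.2% at 50 to 200 kb and 62.9% beyond 200 kb.

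CpG density moved with methylation in every feature. The density was expressed as the observed over expected ratio, which is the number of CpG sites in the window relative to that given by its C and G content. Windows were called CpG-rich at a ratio of at least 0.6 with at least 50% GC, CpG-poor at a ratio under 0.4, and intermediate otherwise. Mean methylation was 60.04% at ratios under 0.1, 57.9% from 0.2 to 0.3, 42.3% from 0.4 to 0.5, 13.3% from 0.6 to 0.7 and 4.29% from 0.8 upwards. CpG-rich windows averaged 4.43% ± 0.0788 in promoters, 14.8% ± 0.246 between genes, 16.4% ± 0.229 in introns and 27.0% ± 0.444 in exons. CpG-poor windows averaged 39.9% ± 0.215, 57.9% ± 0.334, 59.95% ± 0.352 and 65.6% ± 0.332 in the same features. Promoters were therefore the lowest and exons the highest in each density class. The counts of CpG sites came from the C57BL/6J reference, whereas the mice were BALB/c, so sites that differ between the strains were not corrected.

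**Figure D2:**
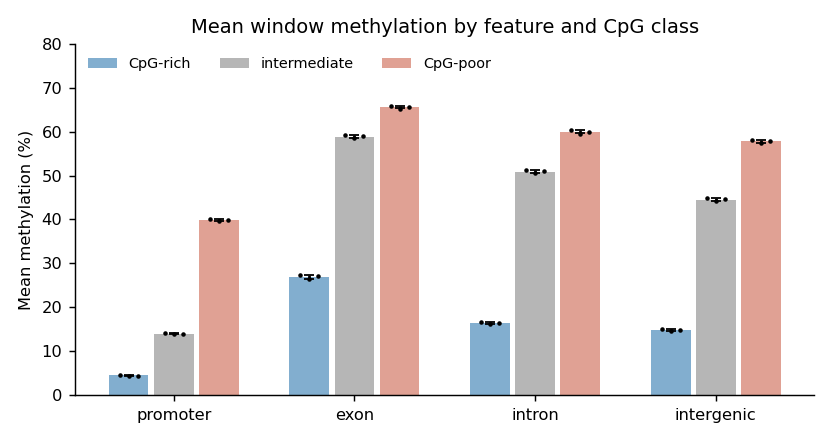
Mean window methylation (y axis, percent) in the 4 gene features, split into CpG-rich, intermediate and CpG-poor windows; bars are means, whiskers the SD and dots the 3 Saline mice. CpG-rich promoters lie at 4.43% and CpG-poor exons at 65.6%.

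Repeat content was read from the bases that the reference marks in lower case. Windows with no such base averaged 42.6% ± 0.320 and windows with at least 75% of them 73.3% ± 0.304. In CpG-poor windows more than 5 kb from a start site the order was not a steady one: the mean was 62.2% with no marked base, 58.6% under 25%, 62.3% from 25% to 50%, 67.7% from 50% to 75% and 73.2% from 75% upwards. Marked bases made up 20.2% of the windows but 36.4% of the chromosomes, so repeats were under-represented.

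Each gene was then given 1 start-site value, that of the window with its midpoint nearest to the start site shared by most of its RefSeq transcripts. Of 24755 genes, 17331 had such a value in all 3 mice, and of 21000 protein-coding genes 15339 did. Protein-coding start sites were mostly unmethylated: the median was 1.77%, and 83.4% of them lay under 20%. Start sites of non-coding RNA genes were more often methylated, with a mean of 26.2% ± 0.204 over 1992 genes against 10.9% ± 0.0977 for protein-coding genes. CpG-poor start sites averaged 40.6%, 40.1% and 40.4% in the 3 mice over 2373 protein-coding genes, and CpG-rich start sites averaged 3.53%, 3.42% and 3.46% over 9827. The difference of 36.9 ± 0.223 points was present in 3 of 3 mice and was larger than the spread between them (exact two-sided permutation p = 0.25 over n = 3 mice).

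The same relation appeared when only the 250 bases before the start site were counted. Autosomal protein-coding genes with no CpG site there averaged 56.9% ± 0.811 over 119 genes, genes with 3 to 5 sites 30.001% ± 0.154 over 1046 genes, genes with 6 to 10 sites 12.6% ± 0.135 over 1883 genes and genes with 31 or more sites 2.07% ± 0.0967 over 1041 genes. The steepest part of this fall lay under about 10 sites. Short motifs were also searched in these bases on both strands, and a match describes the letters only. The GC box GGGCGG, the letters bound by SP1 factors, was present in 44.5% of all 16482 promoters. Among autosomal CpG-rich start sites it was present in 70.4% of 7449 under 20%, in 58.1% of 105 from 20% to 80% and in 41.7% of 24 over 80%. The E-box CACGTG ran the other way, with 697 (9.36%), 21 and 9 (37.5%) promoters in the same 3 sets, against 6.92% of all promoters. The TATA box letters TATAAA, present in 12.4% of all promoters, were found in 8.94% of 559 CpG-poor start sites under 20% and in 17.9% of 168 over 80%. The sets were cut by methylation itself, and the set over 80% in the CpG-rich class was small.

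Around CpG-rich start sites of autosomal genes the unmethylated stretch was narrow and had steep edges. Mean methylation was 2.89% ± 0.0533 at the start site, 8.49% ± 0.0908 at 500 bp upstream and 4.35% ± 0.0484 at 500 bp downstream. It reached 27.4% at 1000 bp upstream but only 15.6% at 1000 bp downstream, so the stretch extended farther into the gene than in front of it. By 2000 bp it was back to 52.6% upstream and 49.1% downstream, over the 3144 and 4562 genes with a window there. CpG-poor start sites showed a shallow dip, with 39.2% ± 0.289 at the start site, 48.5% ± 0.226 at 1000 bp upstream and 44.3% ± 0.259 at 1000 bp downstream.

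**Figure D3:**
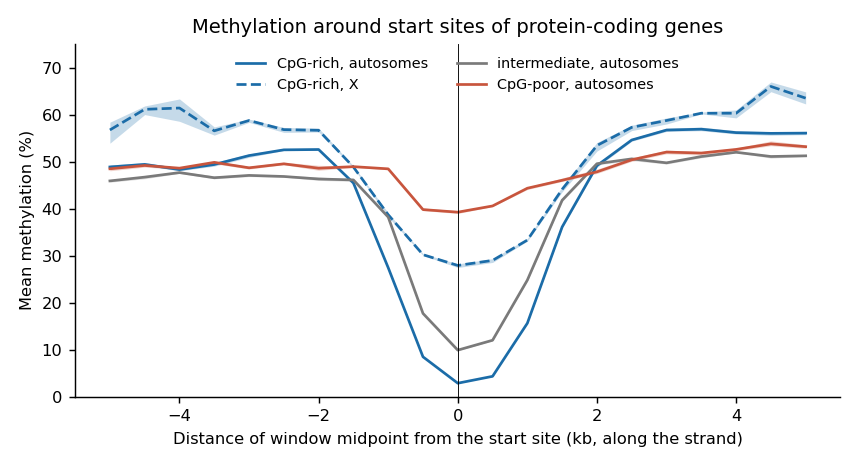
Mean methylation (y axis, percent) against the distance of the window from the gene's own start site (x axis, kb along the strand) for protein-coding genes by CpG class and chromosome; lines are means and bands the range of the 3 Saline mice. Autosomal CpG-rich genes drop to 2.89%, X-linked CpG-rich genes to 27.9%, and CpG-poor genes only to 39.2%.

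Mean gene-body methylation was then read for genes grouped by the class and level of their start site. Over gene-body windows more than 5 kb from any start site, autosomal genes with a CpG-rich start site under 20% averaged 64.7% ± 0.328 over 4413 genes, and those with a CpG-poor start site averaged 58.9% ± 0.290 over 269 genes under 20%, 57.1% ± 0.394 over 387 genes from 20% to 80% and 59.7% ± 0.458 over 40 genes over 80%. For genes with a CpG-poor start site these averages thus lay within a few points of each other. The spread over single genes was not computed.

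Runs of neighbouring windows under 10% in every mouse numbered 21706, with a median length of 2000 bp, and 57.1% of them held a RefSeq start site. The 236 runs of at least 5000 bp, in which 91.1% held a start site, were chosen by level and length, and the genes named here were picked after their values were seen. The longest, 13000 bp at chr5:139539501-139552500, lay over Uncx, a homeobox gene of the axial skeleton, and was methylated at 3.88%, 2.87% and 3.83% in the 3 mice. Olig2, a regulator of oligodendrocyte and motor neuron fate, lay in a run of 9500 bp at 3.09% ± 0.0592. Skor1 lay in a run of 9000 bp, and Lbx1, Tfap2a and Prdm12, transcription factors of muscle precursors, neural crest and sensory neurons, in runs of 8500 bp each. Their number follows from the rule on level and length and is given as a description.

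The X chromosome stood apart in its CpG-rich start sites. Over 226 X-linked CpG-rich protein-coding start sites the mean was 28.0%, 27.5% and 28.3% in the 3 mice, against 2.95%, 2.85% and 2.87% over 9601 autosomal ones. The difference was 25.02 ± 0.378 points in 3 of 3 mice, far over the spread between mice (exact two-sided permutation p = 0.25 over n = 3 mice). The level was also uniform: 197 of the 226 X-linked genes, or 87.2%, lay from 20% to 40%, whereas 95.3% of the autosomal genes lay under 10%. Intermediate-density start sites on X averaged 34.2% ± 0.359 against 10.3% ± 0.106 on autosomes, and CpG-poor ones 49.3% ± 0.537 against 40.1% ± 0.286. Outside promoters the differences were smaller and of both signs. X averaged 62.8% ± 0.505 against 63.5% ± 0.340 in exons and 57.8% ± 0.344 against 59.2% ± 0.356 in introns. Between genes X was the higher in each mouse, with 61.6% ± 0.318 against 56.1% ± 0.335, and 5.64% of its intergenic windows were under 20% against 14.8% on autosomes. The 32 windows on Y, in mice that the study calls female, all lay in 1 stretch at chrY:90741001-90830000, and no window lay elsewhere on that chromosome.

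**Figure D4:**
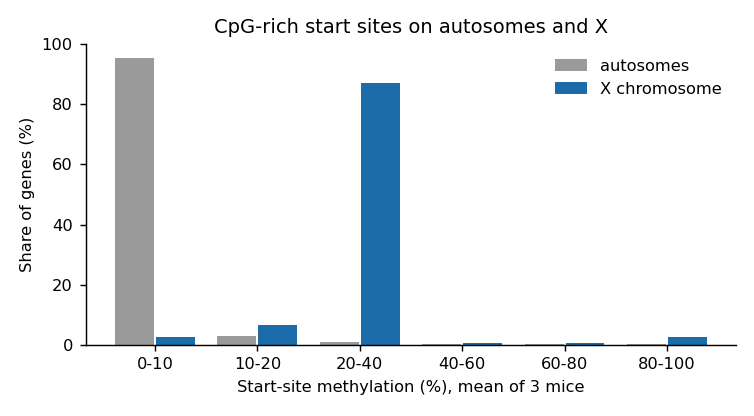
Share of CpG-rich protein-coding start sites (y axis, percent of 226 X-linked or 9601 autosomal genes) by methylation level (x axis, percent, mean of the 3 Saline mice). Most X-linked genes lie from 20% to 40%, and most autosomal genes under 10%.

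Among X-linked housekeeping genes the common level was well represented. Hprt, which salvages purines, gave 25.2% ± 1.49, the glycolytic enzyme gene Pgk1 23.3% ± 0.484, G6pdx of the pentose phosphate pathway 28.0% ± 1.59, and the ubiquitin ligase gene Huwe1 30.5% ± 1.47. Of the 18 listed X-linked genes 13 lay from 20% to 80%, with a median of 27.2%. The 4 under 20% were the lowest by far: Eif2s3x, a translation initiation factor, at 0.460%, 0.848% and 1.33%, the RNA helicase gene Ddx3x at 1.12%, 0.9504% and 0.755%, the histone demethylase gene Kdm6a at 1.21% ± 0.278 and its relative Kdm5c at 1.97% ± 0.397. These 4 genes are known to escape X inactivation in mice. Only 2 other X-linked CpG-rich genes were under 10%, Bcor at 5.06% ± 0.305 and Tmem47 at 7.598% ± 2.60, both named after their values were seen. Xist, the RNA that silences the inactive X, gave 36.7%, 34.2% and 50% on as few as 30 calls. Cul4b, a ubiquitin ligase scaffold, gave 81.1% ± 1.85 in a window of intermediate density. At the top of the X-linked CpG-rich genes stood Taf9b, a subunit of the general transcription machinery, at 90.8%, 93.2% and 91.0%, and 8030474K03Rik and Gm4779, which share 1 window at 90.8% ± 1.21.

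Highly methylated CpG-rich start sites were few and held many germ line genes. Of 9827 CpG-rich protein-coding start sites 33 were over 80%, of which 6 were on X and 6 in the germ line list. All 11 germ line genes with a value were over 60%, with a median of 86.3% ± 2.16. Dazl, an RNA-binding protein of germ cells, was at 90.04% ± 1.64, Sycp1 of the synaptonemal complex at 92.3% ± 0.634, Ddx4, a germ cell helicase, at 87.5% ± 8.05, and Stra8, which germ cells switch on at meiotic entry, at 90.9% ± 1.76. The lowest was Tdrd1, a piRNA pathway gene, with 56.7%, 54.8% and 70.1%. Others over 80% that were in no list, named after their values were seen, included Spo11, which makes the DNA breaks of meiosis, at 88.2% ± 1.90, Msh4, a meiotic crossover gene, at 84.8% ± 0.677, Sycp2 at 83.4% ± 1.64, and the testis histone genes H2bc1 and H2ac1 at 89.5% ± 0.758 and 84.7% ± 0.271. The ribosomal protein retrogene Rpl10l was the highest, with 95.7%, 95.9% and 95.9%.

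Start sites of imprinted genes clustered near the middle of the scale. Of 23 listed genes 19 lay from 20% to 80%, none over 80%, and the median was 46.4%. Over all 17331 genes with a value, coding or not, 16.1% lay from 20% to 80%. H19, a non-coding RNA, gave 47.3%, 46.8% and 48.1%, and Plagl1 (listed also as Zac1) gave 50.3%, 47.6% and 49.6%. Peg10 gave 48.7% ± 1.17, Nnat 53.7% ± 1.40, Meg3 45.0% ± 0.672, and Airn, the antisense RNA of the Igf2r locus, 50.8% ± 5.83. Mest was the highest, at 74.4% ± 1.54. The 4 under 20% were Inpp5f at 0.970%, 0.779% and 0.924%, Grb10 at 2.42% ± 0.256, Dlk1 at 4.16% ± 0.358 and Zim1 at 11.5% ± 1.15. Each gene was read at 1 start site, and several of these loci are known to have more than 1 promoter. Over all autosomes 27 of 9601 CpG-rich protein-coding start sites lay from 40% to 60%, and 7 of them were in the imprinted list.

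Genes that define the cell types of lung were then read at their start sites. Alveolar type 2 cells make surfactant, and 6 of their 12 listed genes had a value, with a median of 2.89%. The surfactant protein genes themselves were partly methylated: Sftpc gave 67.02%, 64.8% and 71.1%, and Sftpa1 gave 66.4%, 55.6% and 69.5%, the latter on as few as 99 calls. Abca3, Etv5, Lpcat1 and the phosphate transporter gene Slc34a2 lay at 0.784%, 1.07%, 1.24% and 4.48%. The first pair were CpG-poor, and none of the other 4 was. Low start sites were common in any case, as 77.9% of all protein-coding ones lay under 10%, with a median of 1.77%. In the alveolar type 1 list, the flat cells of gas exchange, 9 of the 10 genes with a value were under 6%: Rtkn2 at 4.23% ± 0.763, the membrane glycoprotein gene Pdpn at 3.82% ± 0.895 and Clic5, the lowest, at 0.842% ± 0.0962. The exception was Hopx, a homeodomain-only cofactor, which gave 29.1%, 25.8% and 32.8% in a CpG-rich window of 52 CpG sites on autosome 5. Hopx was read at this start site only, and the study's own candidate window for this gene lay at another position.

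Airway lists were thinly covered. Only 2 of 10 club cell genes had a value, with a median of 11.9% (21.3% over every start site), the uroplakin gene Upk3a at 21.3% ± 1.43 and the potassium channel gene Kcnk2 at 2.54% ± 0.459. The secretoglobin gene Scgb1a1, the main secretory product of club cells, had no window at its start site, and its nearest window, 4955 bp downstream, was at 7.11% ± 1.00. The 6 of 10 ciliated cell genes with a value were each under 6%, with a median of 2.68% ± 0.668, or 4.44% over every start site: Foxj1, the master regulator of motile cilia, gave 2.40% ± 0.379, the dynein light chain gene Dynlrb2 1.58% ± 0.140, Rsph1 of the radial spoke 4.48% ± 0.806 and Cfap126 5.46% ± 0.825. Such levels were not particular to ciliated cell genes, as 77.9% of all protein-coding start sites lay under 10%. In the goblet list Foxa3, a forkhead factor, was at 19.5% ± 1.89 and the secreted protein gene Bpifb1 at 66.6% ± 2.26. In the basal list Ngfr was at 3.46% ± 0.122 and the water channel gene Aqp3 at 14.6% ± 1.31. General epithelial genes spanned a wider range, from the adhesion gene Cdh1 at 2.16% ± 0.284 over Epcam at 8.38% ± 0.905 and the keratin gene Krt8 at 38.7% ± 2.38 to the tight junction gene Cldn4 at 52.6% ± 5.41. Nkx2-1, the lineage factor of lung epithelium, was at 2.39%.

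Endothelial genes had a median of 6.51% over the 12 of 20 with a value. Kdr was at 1.21% ± 0.427, the tight junction gene Cldn5 at 8.37% ± 0.989, and Prox1, the regulator of lymphatic endothelium, was the lowest at 1.01% ± 0.381. The receptor gene Tie1, in a CpG-poor window, gave 42.4%, 41.0% and 36.0%. Among fibroblast genes, both collagen type I genes were low, Col1a1 at 3.87% ± 1.46 and Col1a2 at 2.83% ± 0.0854 although the Col1a2 window was CpG-poor, and so was the growth factor receptor gene Pdgfra at 4.56% ± 0.734. Wnt2 was the lowest at 1.24% ± 0.170 and the matrix gene Mfap4 the highest at 48.6%, 41.3% and 58.6%. Of 8 smooth muscle and pericyte genes with a CpG-poor window 6 were under 20%, among them the smooth muscle myosin gene Myh11 at 5.47% ± 0.882 and Tagln at 16.5% ± 3.13. Over all 2373 CpG-poor protein-coding start sites with a value, 32.2% were under 20%. Des was at 4.09% ± 0.335, and Acta2, the smooth muscle actin gene, was the highest at 42.0% ± 2.97. In mesothelium, the lining of the lung surface, Wt1 was at 4.09% ± 0.788, Rspo1 at 2.57% ± 1.25, Lrrn4 at 30.3% ± 2.88 and Msln at 82.0% ± 2.39.

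**Figure D5:**
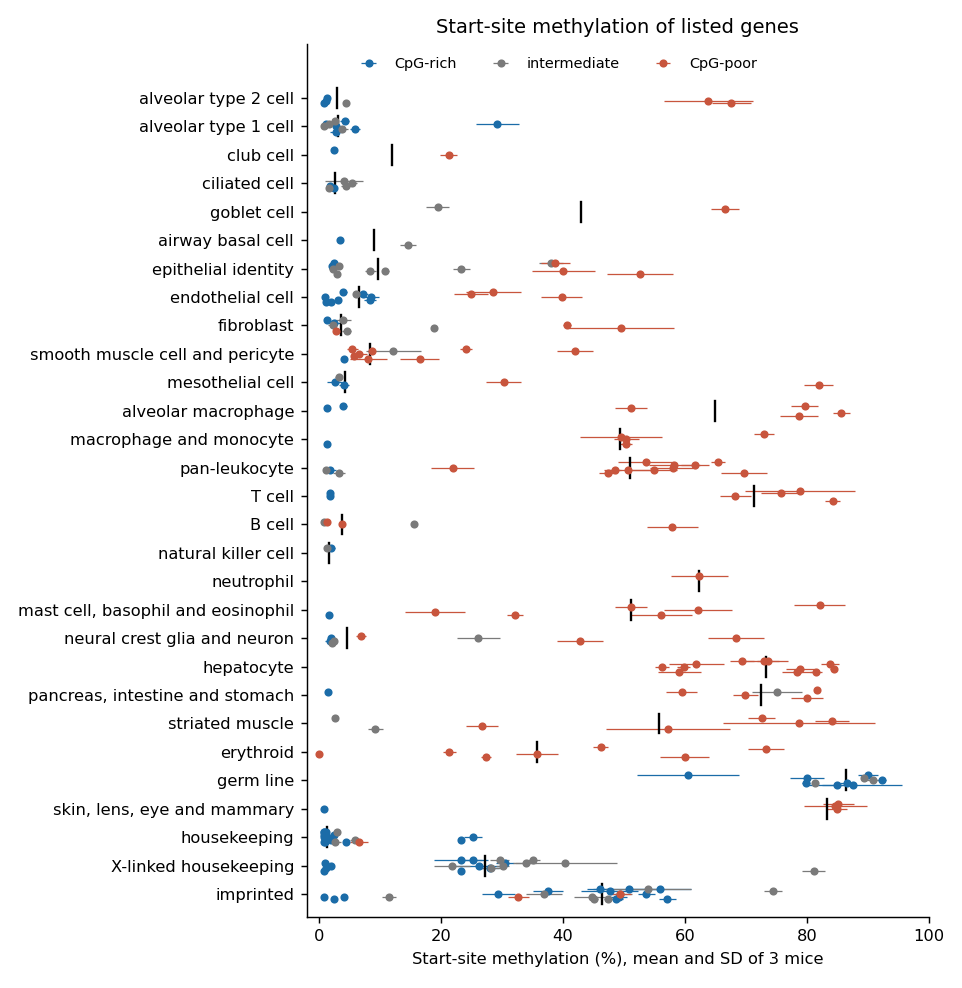
Start-site methylation (x axis, percent; points are genes, whiskers the SD of 3 Saline mice) of the members of each gene list (rows), coloured by CpG class, with list medians as black bars. Of 20 housekeeping genes 18 lie under 20%, imprinted genes near the middle, and germ line genes at the right.

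Start sites of immune genes, as 1 set, had a median of 49.7% ± 0.762 over 45 genes, and those of epithelial, endothelial and mesenchymal genes 5.02% ± 0.295 over 75 genes. The immune lists were not alike: the medians of the B cell list, 3.81% ± 0.330 over 5 genes, and of the natural killer cell list, 1.62% ± 0.547 over 2 genes, were under that of the structural set. CpG density differed between the lists, with 32 of the 45 immune genes CpG-poor against 23 of the 75. Within CpG-poor start sites the medians were 58.3% ± 1.56 for immune and 30.9% ± 2.15 for structural genes, within intermediate start sites 1.35% ± 0.336 over 5 genes and 4.45% ± 0.458 over 24 genes, and within CpG-rich start sites 1.63% ± 0.257 over 8 genes and 2.68% ± 0.130 over 28 genes. Immune genes were thus the higher only in the CpG-poor class. In pan-leukocyte genes, Ptprc, which codes for CD45, gave 59.0%, 51.6% and 54.2%, Laptm5 58.0% ± 3.78, Runx3 69.7% ± 3.80, Coro1a 3.31% ± 0.949 and the actin-bundling gene Lcp1 1.21% ± 0.452. In T cell genes Cd3g was at 68.3% ± 2.52, the kinase gene Lck at 75.7% ± 3.19, the adaptor gene Lat at 78.8% ± 8.98, Cd8a at 84.2% ± 1.22 and the transcription factor gene Tcf7 at 1.83% ± 0.504. In B cell genes Cd79a of the B cell receptor was at 58.0% ± 4.12, Pax5 at 15.5% ± 0.398 and Ebf1 at 0.899% ± 0.132. The complement receptor gene Cr2 and the BAFF receptor gene Tnfrsf13c, both CpG-poor and named after their values were seen, were low at 3.81% ± 0.330 and 1.28% ± 0.0551. The B cell median was 9.67% over all deposited windows and 9.59% without mouse 1.

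In macrophages and monocytes Cd68 gave 50.4% ± 2.05, Spi1, the PU.1 transcription factor gene, 49.5% ± 6.74, and the complement gene C1qa 73.0% ± 1.62. In the alveolar macrophage list the lectin gene Siglecf gave 51.1% ± 2.65, the ribonuclease genes Ear1 and Ear2 79.6% ± 2.22 and 78.7% ± 3.05, Krt79 85.7% ± 1.38 and Pparg 1.31% ± 0.521. Ear1 and Ear2 belong to a family of near-identical genes, and reads of its members may have been placed on the wrong copy. The neutrophil list had a value for 1 of 14 genes, Prtn3, at 62.4% ± 4.66. In the mast cell, basophil and eosinophil list Kit, a growth factor receptor, was at 1.59% ± 0.303, Hdc, which makes histamine, at 19.1% ± 4.89, Fcer1a of the IgE receptor at 56.1% ± 5.05 and the eotaxin receptor gene Ccr3 at 82.1% ± 4.15. Natural killer cell genes with a value were 2 T-box factors, Eomes at 1.34% ± 0.354 and Tbx21 at 1.90% ± 0.740.

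Genes of other tissues gave the upper reference. All 12 hepatocyte genes with a value were CpG-poor and over 56%, with a median of 73.3%: Alb was at 73.0% ± 3.91, Pck1, an enzyme of glucose synthesis, the lowest at 56.2% ± 1.20, and Tat, which breaks down tyrosine, the highest at 84.4% ± 0.624. Of the pancreas, intestine and stomach list Gcg, which codes for glucagon, was at 75.1% ± 4.08, Gast at 81.6% ± 0.414 and the CpG-rich Cdx2, a regulator of intestine, at 1.504% ± 0.431. In striated muscle Mb, the myoglobin gene, was at 84.1% ± 2.81, the cardiac myosin gene Myh6 gave 50%, 52.9% and 68.9% on as few as 70 calls, and Actn2 was at 2.56% ± 0.223. In skin, lens, eye and mammary genes Krt10 and the crystallin gene Cryaa were at 84.9% ± 1.62 and 85.2% ± 2.52, and Mitf, a CpG-rich pigment cell regulator, at 0.807% ± 0.230. Erythroid genes were less methylated than these, with a median of 35.8%: Hbb-bt, an adult globin gene, was at 59.96% ± 4.02, Klf1 at 73.3% ± 2.99, and Rhag was read as 0% on as few as 20 calls at 1 CpG site, which allows a level of up to 15% in such a mouse (3 of 20 calls). Glial and neuronal genes had a median of 4.66% (15.7% over every start site), with Rbfox3 at 1.76% ± 0.692, the glial factor gene Sox10 at 42.8% ± 3.75 and Th, the rate-limiting enzyme of dopamine synthesis, at 68.4% ± 4.62. Over CpG-poor start sites only, the median of other-tissue genes was 69.8% ± 1.44 over 34 genes, and over CpG-rich ones 1.60% ± 0.309 over 4 genes, so at dense start sites their level was as low as that of lung genes. Housekeeping genes gave a low reference, with a median of 1.40% ± 0.122 over 20 genes, Actb at 1.09% ± 0.185 and Eef1a1 at 0.809% ± 0.190. None of the 8 olfactory receptor and keratin-associated genes had a value.

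Many defining lung genes had no window at the start site, and their loci were read instead, within the gene and 2000 bp either side. Cdh5, the cadherin of endothelial junctions, averaged 48.0% ± 1.91 over 8 windows, with its lowest window, 1624 bp upstream, at 28.5%, 23.5% and 17.2%. Pecam1, which codes for CD31, averaged 39.8% ± 0.709 over 42 windows. Sftpb averaged 63.7% ± 0.984 over 5 windows, and the 2 windows of Ager, an alveolar type 1 marker, averaged 70.3% ± 3.17. Cav1 and Col3a1 had low windows inside the gene, at 1.06% ± 0.920 and 1.35% ± 0.803. These 2 values are of low windows only and cannot be set beside the locus averages above. Distal CpG-poor windows, more than 5 kb from any start site, were under 20% in 25081 of 264650 cases, or 9.48%. Per gene, over those with at least 5 such windows in the locus, the mean distal level had a median of 63.5% ± 0.353 over 7290 protein-coding genes. It was 56.1% ± 1.04 over 41 structural lung genes, against 58.3% ± 1.10 over 35 immune, 64.9% ± 1.55 over 20 other-tissue and 64.4% ± 0.884 over 4 housekeeping genes. The sets overlapped widely, as single genes ran from 23.3% to 85.7% in the structural set and from 30.9% to 89.6% in other tissues. Among lung cell type lists with at least 3 genes that had such a value, the median ran from 45.6% ± 0.219 over 4 goblet genes, 46.9% ± 3.196 over 3 mesothelial genes and 47.3% ± 2.86 over 5 endothelial genes to 76.3% ± 2.46 over 4 fibroblast genes. Of the other-tissue lists, glial and neuronal genes were as low, at 46.6% ± 0.444 over 3 genes. The rest with at least 3 genes ran from 61.9% in striated muscle to 76.1% in erythroid genes. The small numbers of genes allow no ranking.

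The 3 mice resembled each other closely. Across 432538 windows, which share libraries and overlap and so are not independent replicates, the correlation between mice was 0.980 to 0.981. The median window had an SD over mice of 2.44 points, and 82.5% of windows ranged over less than 10 points. The SD expected from counting error, with calls taken as independent, had a median of 2.00 points. An expected SD and an SD over 3 mice are unlike measures, so the gap was not interpreted. Among the 4 gene features promoter windows varied least, with a median SD of 0.966 points. By level, the median SD was 0.369 points in windows under 5% and 3.54 points in windows from 40% to 60%. Among 15004 protein-coding start sites with at least 100 calls in every mouse the median range was 0.699 points, and 13 genes ranged over 20 points or more. The widest were Map3k15, a kinase gene on X, with 89.1%, 61.1% and 87.4%, Bcl3, an NF-κB cofactor, with 34.7%, 35.4% and 8.32%, and Vxn with 90.9%, 64.4% and 83.5%. In Map3k15 and Vxn mouse 2 was the low one, and in Bcl3 mouse 3 was. All 3 were read at 1 window with a lowest depth of 229, 209 and 104 calls. The mitochondrial genome, counted apart, was read as methylated at 1.44% of 223468 calls (Wilson 95% interval 1.39% to 1.49%), 1.55% of 198133 (1.496% to 1.604%) and 1.68% of 200189 (1.62% to 1.73%). These intervals take calls as independent. Unconverted cytosine cannot be told apart from methylated cytosine in such calls, and the conversion rate was not tested. The lowest nuclear start-site values, such as Eef1a1 at 0.809%, lie under these levels, so their order carries little meaning.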

How the data were processed

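Genomic DNA of lung from 3 Saline mice was captured, bisulfite-converted and sequenced in pairs of 101 cycles on a HiSeq 2500. Per the submitters' processing notes the authors used cutadapt 1.10, Bismark 0.19.0 and methylKit 1.0.0 on mm10; the study's methods name other versions of the same tools. The deposited values are counts without normalization: CpG calls, methylated calls and unmethylated calls per mouse and window. The OVA and Herb columns were not used here.

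Methylation was 100 times methylated calls over all calls, for windows with at least 20 calls in the mouse. Windows took the first of promoter, exon, intron and intergenic that they overlapped, from 44331 RefSeq transcripts of GRCm38.p6, which has the chromosome names and lengths of mm10. Mitochondrial windows were kept out of all other means. The 4 differences within mice were tested with exact two-sided sign-flip permutations over mice, in Python 3.11.15 with SciPy 1.17.1; whether the mice were littermates is not given in the sources used here. The steps were tested on simulated data. Gene lists, members and named genes were chosen with earlier results of these data known. Named were, per lung list, the first 3 genes with a value, the lowest and the highest; per other list, the first, the lowest and the highest; the 3 widest ranges over mice; and the 3 lowest and 3 highest X-linked CpG-rich genes. Genes named beyond this rule were chosen after their values were seen. A gene that the rule names is not reported here. Alternatives were other call minimums, windows that do not overlap, autosomes only, pooled calls, other feature and promoter definitions, every start site, a stricter CpG-rich class, and leaving out each mouse.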

Additional observations from a re-analysis of the deposited data

How the results depend on the processing

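The 4 differences, averaged over mice, kept their direction under every alternative on which each was run. Promoters minus intergenic windows ranged from -38.0 (feature at the midpoint) to -31.1 points (promoter from 2000 bp upstream to 500 bp downstream), gene bodies minus promoters from 33.9 (the same promoter) to 43.2 (pooled calls), CpG-poor minus CpG-rich start sites from 36.2 to 37.8, and X minus autosomes from 24.01 to 25.03. Leaving out each mouse in turn moved them only within -33.7 to -33.5, 37.7 to 37.9, 36.8 to 37.2 and 24.8 to 25.2 points; with 2 mice the smallest exact permutation p is 0.5. The share of windows over 80% was 14.2% with pooled calls. Some list medians moved by more than the SD over mice, for example striated muscle from 55.8% to 42.0% with at least 50 calls, neutrophil from 62.4% to 75.2% and B cell from 3.81% to 9.67% over all deposited windows, and club cell from 11.9% to 21.3% and glial and neuronal genes from 4.66% to 15.7% over every start site. Only windows that the capture reached are described, and many marker genes had no window at their start site. The 4 differences were paired within each mouse. Between groups, no paired analysis was possible because no groups were compared, and replicate numbers were not used as pairs.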
